A study of Mus musculus with 12 samples.

Results

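The 8 genes described here mark the granule cells of the dentate gyrus, the main excitatory neurons of that part of the hippocampus. They are Prox1, Dsp, C1ql2, Tdo2, Lct, Calb1, Trpc6 and Dock10, and they were chosen by name, as known markers, out of 24209 genes. In that total a RefSeq entry without a symbol counts as its own gene. Hippocampal mRNA-seq from 12 male C57BL/6 mice, injected at an age of 10 weeks, was used, in 2 experiments with 6 mice each and 3 mice per group. Each mouse had received bilateral injections of an AAV5 vector that expressed its transgene from a synapsin promoter, which is active in neurons, and both whole hippocampi were collected 10 weeks later. In the miR-9 experiment the vector carried GFP with a miR-9 sponge (miR-9sp, mice 17, 23 and 9) or GFP only (GFP Ctrl, mice 16, 2 and 8). In the miR-34 experiment it carried GFP with a miR-34 sponge (miR-34sp, mice 13, 18 and 3) or GFP only (GFP Ctrl, mice 10, 4 and 8, which are other animals than those of the miR-9 experiment). A sponge is a transcript with repeated binding sites that sequesters a miRNA family and so relieves its targets. All mice, controls included, carried a vector and GFP, and no uninjected hippocampus was analysed here. The labels call the material hippocampal neurons, but the RNA came from whole tissue, so glia and other cells contributed to it.

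Granule cells form the dense cell layer of the dentate gyrus, receive the main cortical input to the hippocampus through the perforant path, and send their axons, the mossy fibres, to CA3 pyramidal neurons. New granule cells are added throughout adult life in rodents. A marker in bulk tissue reads both how many such cells the sample holds and how much of the transcript each cell carries, and fewer cells cannot be told apart from less RNA per cell.

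Total counts were 17279620 to 24428477 reads per mouse for miR-9 and 11029604 to 16934133 for miR-34, so 3 reads, taken as the smallest count read as detection, corresponded to 0.123 to 0.272 CPM (counts scaled to the same library total in each mouse; counting error only). All 8 genes were above that level in all 12 mice, and all 8 passed the limit of a mean scaled count above 10 that was set for testing. Calb1 had between 2173 and 5893 reads per mouse, while Dock10 had between 6 and 20, so the precision differed widely among the markers. Choroid plexus genes differed greatly between mice: their summed level was 654 to 2387 CPM in the GFP Ctrl mice and 75.3 to 156 CPM in the miR-34sp mice of the miR-34 experiment, and it ranged from 57.0 to 886 CPM in the miR-9 experiment, where the groups overlapped. Its part in the values below was not tested.

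Among the 6 markers with a single RefSeq entry, levels can be compared per length of that entry. In the GFP Ctrl mice of the miR-9 experiment the order in CPM per kb was Calb1 with 81.9 ± 5.29 (SD, n = 3), C1ql2 with 49.5 ± 17.9, Prox1 with 21.5 ± 3.18, Lct with 7.61 ± 1.87, Dsp with 4.77 ± 1.21 and Tdo2 with 4.15 ± 0.465. In this group each gene lay apart from the next in every mouse, except Dsp and Tdo2, whose ranges overlapped. The order of the means was the same in the other 3 groups. There, the ranges of Lct and Dsp and of Dsp and Tdo2 overlapped in each group, and those of Calb1 and C1ql2 overlapped in the GFP Ctrl mice of the miR-34 experiment. Calb1, the first in that order, encodes the calcium-binding protein calbindin and is also known from CA1 pyramidal cells and interneurons. Between the sets of GFP Ctrl mice, Dsp was 1.69-fold and Tdo2 1.36-fold higher in the miR-34 than in the miR-9 experiment, with no overlap of the 3 and 3 mice, and the other 6 markers overlapped, beside 16.1% of all genes that were higher without overlap; these sets differ in their experiment, and what else differed between the experiments cannot be told apart from the mice.

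**Figure D1:**
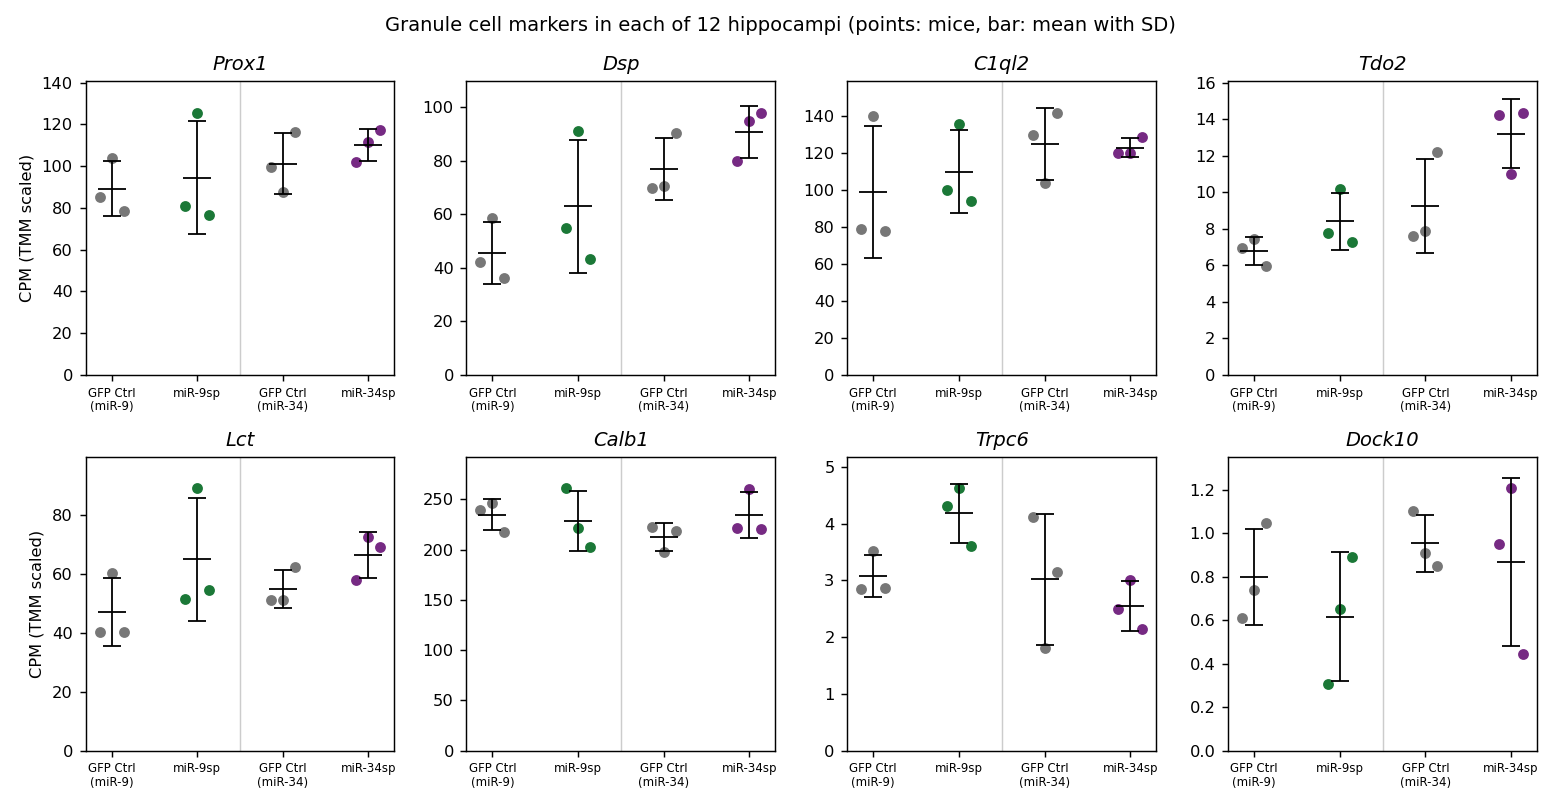
Level of each marker in CPM with TMM scaling (y axis, from 0, its own scale in each panel) in the 4 groups of 3 mice. Points are mice, listed as 16, 2, 8, then 17, 23, 9, then 10, 4, 8, then 13, 18, 3, and the bar is the mean with its SD; the groups of an experiment overlap in every panel except for Trpc6 after miR-9sp.

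To ask whether inhibition of miR-9 in neurons was accompanied by a difference in these markers, the miR-9sp mice were compared with their GFP Ctrl mice. None of the 8 markers passed an adjusted p of 0.05 in the quasi-likelihood test of edgeR, fitted over 13045 genes, of which 0% passed. The log2 fold change was above 0 for 6 markers and below 0 for 2, with a median of 0.22 beside -0.00062 over all genes tested, 49.7% of which were above 0. At an unadjusted p under 0.05, 1 of the 8 (Trpc6) was higher after miR-9sp, beside 2.47% of all genes. Trpc6 was also the only 1 of the 8 whose groups did not overlap, being higher in all 3 sponge mice, beside 5.21% of all genes. Over all genes, 0 passed the adjusted p in edgeR and 2 in DESeq2, with 322 genes higher and 295 lower at an unadjusted p under 0.05 in edgeR. The number of markers at that limit depended on single mice: it was 0 without sponge mouse 23, 0 without GFP Ctrl mouse 16 or 8, and 5 without GFP Ctrl mouse 2.

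In the miR-34 experiment, too, none of the 8 markers passed the adjusted p, in a fit of 12492 genes of which 8 passed (0.064%), all of them lower in the sponge mice. Of the log2 fold changes, 5 were above 0 and 3 below 0, with a median of 0.13 beside -0.00067 over all genes, 49.7% of which were above 0. At an unadjusted p under 0.05, 3 of the 8 (Dsp, Tdo2 and Lct) were higher after miR-34sp, beside 2.71% of all genes. The groups overlapped for each of the 8, so 0 of 8 were apart with the sponge mice higher, beside 5.8% of all genes. Which markers were at the unadjusted limit depended on single mice. Without GFP Ctrl mouse 10 it was Calb1 alone, and without sponge mouse 18 Tdo2 alone. Without GFP Ctrl mouse 4 Tdo2 was higher, while C1ql2 (log2 fold change -0.14) and Trpc6 (-0.52) were lower after the sponge. With GFP Ctrl mouse 8 left out, 4 markers (Prox1, Dsp, Tdo2 and Lct) were higher at that limit. The exact permutation test of a single gene cannot fall below 0.1 with 3 mice against 3.

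**Figure D2:**
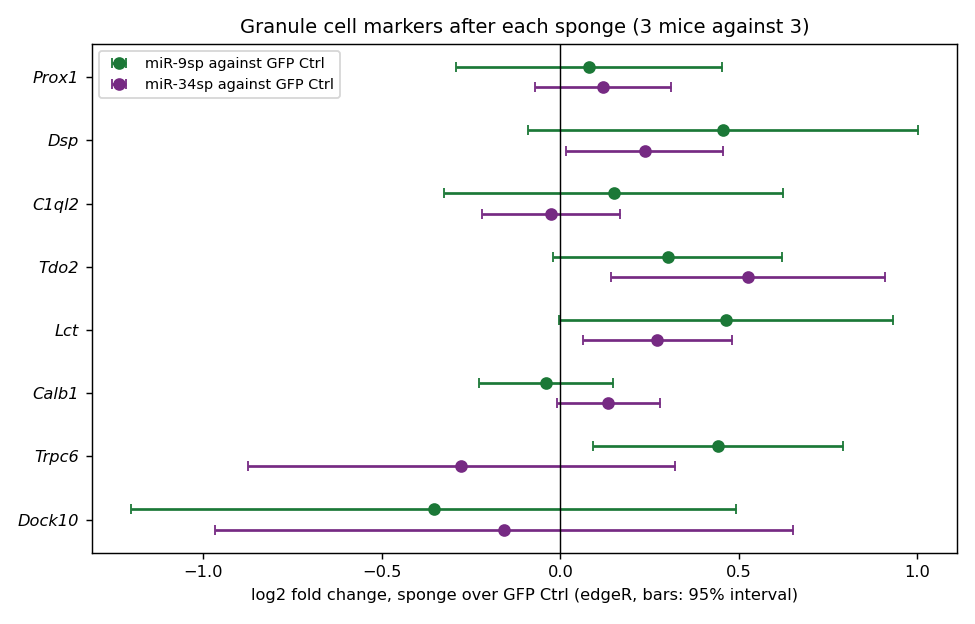
The log2 fold change of each marker, sponge over GFP Ctrl, with its 95% interval from edgeR, for miR-9sp (upper bar of each pair) and miR-34sp (lower bar), 3 mice against 3. The points lie between -0.35 and 0.53, and the interval excludes 0 for Trpc6 after miR-9sp and for Dsp, Tdo2 and Lct after miR-34sp, none of which passed the adjusted p.

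Prox1 (NM_008937; chr1:191945660-191994559 on mm9, minus strand) encodes the homeodomain transcription factor that specifies and maintains granule cell identity. In the miR-9 experiment its level was 81.1, 126 and 76.7 CPM in miR-9sp mice 17, 23 and 9, and 85.2, 104 and 78.3 CPM in GFP Ctrl mice 16, 2 and 8. Mouse 23 was high in the sponge group and mouse 2 in the controls, and the other 4 mice lay close together. In the fit the log2 fold change was 0.08 ± 0.17 (SE; adjusted p = 0.978, edgeR), and it turned to -0.17 without mouse 23. In the miR-34 experiment the levels were 102, 111 and 117 CPM in miR-34sp mice 13, 18 and 3, and 99.6, 87.6 and 116 CPM in GFP Ctrl mice 10, 4 and 8. All 3 sponge mice were above the mean of the controls, but control mouse 8 lay within their range. The fitted log2 fold change was 0.12 ± 0.087 (SE; adjusted p = 0.904, edgeR), with a 95% interval from -0.07 to 0.31, and it was 0.031 without GFP Ctrl mouse 4 and 0.23 without GFP Ctrl mouse 8.

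Dsp (NM_023842; chr13:38243197-38290446 on mm9, plus strand) encodes desmoplakin, a protein that links desmosomal junctions to intermediate filaments and is a marker of granule cells among hippocampal neurons. Its level was 54.7, 91.1 and 43.4 CPM in miR-9sp mice 17, 23 and 9, and 42.1, 58.7 and 36.3 CPM in GFP Ctrl mice 16, 2 and 8. The spread within each group was wide, with a coefficient of variation of 39.5% in the sponge mice and 25.4% in the controls. Its log2 fold change was 0.46 ± 0.25 (SE; adjusted p = 0.970, edgeR), and without mouse 23 it was 0.10. After miR-34sp its level was 79.9, 94.9 and 98.1 CPM in mice 13, 18 and 3, against 69.9, 70.8 and 90.6 CPM in GFP Ctrl mice 10, 4 and 8. Here all 3 sponge mice were above the mean of the controls, with control mouse 8 above sponge mouse 13. The log2 fold change was 0.24 ± 0.10 (SE; adjusted p = 0.728, edgeR), and it was 0.37 without control mouse 8.

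C1ql2 (NM_207233; chr1:122237159-122239748 on mm9, plus strand) encodes a secreted C1q-like protein that granule cells release at mossy fibre synapses. Levels of 100.01, 136 and 94.2 CPM in miR-9sp mice 17, 23 and 9 stood beside 78.9, 140.2 and 77.9 CPM in GFP Ctrl mice 16, 2 and 8. The highest mouse of all 6 was a control, and the groups overlapped. This gave a log2 fold change of 0.15 ± 0.21 (SE; adjusted p = 0.973, edgeR), and it turned to -0.027 without mouse 23. The levels were 120.3, 119.9 and 129 CPM in miR-34sp mice 13, 18 and 3, and 129.7, 104 and 142 CPM in GFP Ctrl mice 10, 4 and 8. The sponge mice lay inside the range of the controls, with a log2 fold change of -0.03 ± 0.088 (SE; adjusted p = 0.977, edgeR) and a 95% interval from -0.22 to 0.17.

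The next 2 markers are enzymes. Tdo2 (NM_019911; chr3:81761012-81780124 on mm9, minus strand) encodes tryptophan 2,3-dioxygenase, which opens the kynurenine pathway of tryptophan breakdown. Its level was 7.76, 10.2 and 7.28 CPM in miR-9sp mice 17, 23 and 9, and 6.96, 7.44 and 5.95 CPM in GFP Ctrl mice 16, 2 and 8. Each sponge mouse was above the mean of the controls, but sponge mouse 9 was below control mouse 2. In the fit the log2 fold change was 0.30 ± 0.14 (SE; adjusted p = 0.970, edgeR), and it was 0.15 without mouse 23. In miR-34sp mice 13, 18 and 3 its level was 14.2, 11.03 and 14.4 CPM, and in GFP Ctrl mice 10, 4 and 8 it was 7.64, 7.89 and 12.2 CPM. This was the marker with the highest fold change in that experiment, 1.44-fold with a 95% interval from 1.10 to 1.88 before adjustment, and control mouse 8 was above sponge mouse 18. The fitted log2 fold change was 0.53 ± 0.18 (SE; adjusted p = 0.617, edgeR).

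Lct (NM_001081078; chr1:130181333-130224895 on mm9, minus strand) encodes lactase, best known from the gut, and its transcript is a marker of granule cells in mouse hippocampus. Its level was 51.4, 89.1 and 54.6 CPM in miR-9sp mice 17, 23 and 9, and 40.4, 60.2 and 40.1 CPM in GFP Ctrl mice 16, 2 and 8. The order resembled that of Dsp: mouse 23 was highest, control mouse 2 lay above the other 2 sponge mice, and the groups overlapped. Its log2 fold change was 0.46 ± 0.21 (SE; adjusted p = 0.970, edgeR), and it was 0.18 without mouse 23. In the miR-34 experiment its level was 57.8, 72.6 and 69.1 CPM in sponge mice 13, 18 and 3, and 51.0, 51.3 and 62.4 CPM in GFP Ctrl mice 10, 4 and 8. Sponge mice 18 and 3 were above every control, and sponge mouse 13 was below control mouse 8. The log2 fold change was 0.27 ± 0.095 (SE; adjusted p = 0.653, edgeR).

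Calb1 (NM_009788; chr4:15808411-15835211 on mm9, plus strand), the calbindin gene, had the narrowest spread of the markers in both sets of GFP Ctrl mice, with coefficients of variation of 6.46% (miR-9) and 6.44% (miR-34). Levels were 261, 221 and 203 CPM in miR-9sp mice 17, 23 and 9, and 239.8, 247 and 218 CPM in GFP Ctrl mice 16, 2 and 8. The sponge mice spanned the range of the controls, and mouse 17, not mouse 23, was the highest. This gave a log2 fold change of -0.04 ± 0.084 (SE; adjusted p = 0.978, edgeR), with a 95% interval from -0.23 to 0.15. After miR-34sp, mice 13, 18 and 3 had 221, 260.4 and 221 CPM, against 223, 197 and 219 CPM in GFP Ctrl mice 10, 4 and 8. Only sponge mouse 18 was above every control, and the log2 fold change was 0.13 ± 0.066 (SE; adjusted p = 0.797, edgeR), or 0.054 without that mouse.

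Trpc6 (chr9:8544432-8680565 on mm9, plus strand) encodes a cation channel gated by diacylglycerol, which lets calcium enter the cell. It has 3 RefSeq entries, of which NM_001282086 was at 0 reads in all 12 mice, while NM_001282087 had 10 to 67 and NM_013838 had 10 to 36 reads. The sum was 4.31, 4.63 and 3.61 CPM in miR-9sp mice 17, 23 and 9, and 2.85, 3.51 and 2.87 CPM in GFP Ctrl mice 16, 2 and 8. All 3 sponge mice were above all 3 controls, although the gap between sponge mouse 9 and control mouse 2 was small. By entry, NM_001282087 had 67, 48 and 44 unscaled reads in these sponge mice, and 34, 49 and 37 in these controls. NM_013838 had 18, 30 and 25 reads against 36, 27 and 18, so the higher sum came mainly from NM_001282087. In the fit of the sum the log2 fold change was 0.44 ± 0.16 (SE; adjusted p = 0.970, edgeR), or 1.36-fold, from totals of 55 to 85 reads per mouse. In the miR-34 experiment the sum was 2.49, 3.01 and 2.15 CPM in sponge mice 13, 18 and 3, and 4.11, 1.81 and 3.14 CPM in GFP Ctrl mice 10, 4 and 8. The controls spanned the sponge mice, the 20 to 56 reads per mouse gave little precision, and the log2 fold change was -0.28 ± 0.27 (SE; adjusted p = 0.924, edgeR).

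Dock10 (chr1:80497648-80755128 on mm9, minus strand) encodes a guanine nucleotide exchange factor, a protein that switches on small GTPases. Of its 2 RefSeq entries, NM_175291 had 6 to 17 reads and NM_001285927 had 0 to 3 reads per mouse. The sum was 0.304, 0.652 and 0.891 CPM in miR-9sp mice 17, 23 and 9, and 0.610, 0.739 and 1.04 CPM in GFP Ctrl mice 16, 2 and 8. In the miR-34 experiment the sum was 0.949, 1.21 and 0.445 CPM in sponge mice 13, 18 and 3, and 1.10, 0.907 and 0.850 CPM in GFP Ctrl mice 10, 4 and 8. The groups overlapped in both experiments. The log2 fold change of -0.35 ± 0.38 (SE; adjusted p = 0.970, edgeR) after miR-9sp had a 95% interval from -1.20 to 0.49, and a difference was not detectable at this depth; without mouse 17 it was -0.0080. After miR-34sp it was -0.16 ± 0.37 (SE; adjusted p = 0.970, edgeR). Genes with several RefSeq entries had lower counts in general, with a median scaled count of 3.59 for genes with 2 entries and 1.91 for genes with 3 or more, beside 39.5 for genes with 1 entry. The counting rule for reads that fit several entries is not given in the sources used here, so the levels of Trpc6 and Dock10 are uncertain.

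Whether the sponges differed in their effect on the markers was tested directly, as the difference between the log2 fold changes in 1 edgeR model of all 12 mice and 12835 genes. None of the 8 markers passed the adjusted p, beside 0% of all genes; at an unadjusted p under 0.05 there was 1 marker (Trpc6), beside 6.1% of all genes, and DESeq2 gave 0 of 8 by either limit. For Trpc6 the log2 fold change was 0.72 ± 0.32 (SE; adjusted p = 0.795, edgeR) higher with miR-9sp than with miR-34sp, with a 95% interval from 0.03 to 1.41, and without GFP Ctrl mouse 10 of the miR-34 experiment it was 0.42 and no longer at the unadjusted limit. For Calb1 the difference was -0.17 ± 0.12 (SE; adjusted p = 0.845, edgeR), and for Prox1 it was -0.04 ± 0.22 (SE; adjusted p = 0.990, edgeR) with an interval from -0.50 to 0.43. The widest interval was that of Dock10, from -1.38 to 0.99, and a sizeable difference in either direction was within reach of the error for most of the markers.

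Several of the markers varied together from mouse to mouse within the groups. When each value was expressed as the log2 difference from the mean of its group, miR-9sp mouse 23 was above its group mean for 7 of the 8 markers, and highest of its group for 6. GFP Ctrl mouse 2 of the miR-9 experiment was likewise above its group mean for 7 and highest for 7, and GFP Ctrl mouse 8 of the miR-34 experiment was above for 7 and highest for 5. At the other end, GFP Ctrl mouse 4 of the miR-34 experiment was above its group mean for 0 of 8. The mean deviation over the 8 markers was 0.30 in mouse 23 and 0.24 in mouse 2, against values between -0.20 and 0.16 in the other 10 mice. Mouse 23 received the sponge and mouse 2 did not, so the mice that stood apart belonged to both groups of that experiment.

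The markers differed in how closely they followed this shared variation. The Pearson r of a marker's deviations with the mean deviation of the other 7, over the 12 mice, was 0.90 for Prox1, 0.87 for Lct, 0.84 for C1ql2 and 0.80 for Dsp. It was 0.51 for Trpc6, 0.47 for Tdo2, 0.24 for Calb1 and -0.13 for Dock10. These values describe the same libraries and scaling, in which all markers share a mouse's dissection and depth. Without mice 23 and 2, and with deviations taken again from the means of the remaining mice (a choice made after seeing the data), the r was 0.75 for C1ql2, 0.71 for Prox1, 0.53 for Lct and 0.33 for Dsp, each below its value over 12 mice. It was also lower for Tdo2 (0.093) and Dock10 (-0.32), but higher for Trpc6 (0.56) and Calb1 (0.42). Each group of the miR-9 experiment then holds 2 mice, whose deviations mirror each other. Within the 6 mice of the miR-34 experiment the r was 0.76 for C1ql2 and for Calb1 and 0.75 for Prox1. There it was lower for the remaining markers, with 0.59 for Trpc6, 0.55 for Lct, 0.49 for Dsp, 0.11 for Tdo2 and -0.067 for Dock10. In the miR-9 experiment Calb1 had an r of 0.0055 and Dock10 of -0.17, and the remaining markers lay between 0.81 and 0.99.

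The bases just before the start of Prox1, Lct, C1ql2 and Dsp, the 4 markers with the highest r, are shown because these genes varied together, with the letters CANNTG in capitals, the core bound by basic helix-loop-helix factors such as NEUROD1. The sequences are the 250 bases before the first base of the gene in RefSeq, on GRCm38.p6, written 5′ to 3′ on the strand of the gene. For Prox1 the outermost of its starts is given.
Prox1, chr1:190170828-190171077, minus strand: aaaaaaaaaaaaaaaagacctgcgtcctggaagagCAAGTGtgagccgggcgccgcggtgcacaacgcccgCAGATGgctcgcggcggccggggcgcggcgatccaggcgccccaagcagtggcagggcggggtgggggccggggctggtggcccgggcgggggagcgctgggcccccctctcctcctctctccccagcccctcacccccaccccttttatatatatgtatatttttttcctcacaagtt
Dsp, chr13:38151044-38151293, plus strand: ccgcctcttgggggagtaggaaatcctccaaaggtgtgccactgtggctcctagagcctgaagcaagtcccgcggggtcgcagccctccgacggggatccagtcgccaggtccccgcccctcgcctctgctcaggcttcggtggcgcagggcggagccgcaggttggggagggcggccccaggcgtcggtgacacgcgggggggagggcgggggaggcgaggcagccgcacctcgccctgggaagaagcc
C1ql2, chr1:120340332-120340581, plus strand: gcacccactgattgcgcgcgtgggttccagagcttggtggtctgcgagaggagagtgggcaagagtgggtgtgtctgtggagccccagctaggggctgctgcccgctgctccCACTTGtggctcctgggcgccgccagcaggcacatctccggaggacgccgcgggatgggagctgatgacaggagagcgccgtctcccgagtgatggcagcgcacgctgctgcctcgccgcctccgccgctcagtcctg
Lct, chr1:128328319-128328568, minus strand: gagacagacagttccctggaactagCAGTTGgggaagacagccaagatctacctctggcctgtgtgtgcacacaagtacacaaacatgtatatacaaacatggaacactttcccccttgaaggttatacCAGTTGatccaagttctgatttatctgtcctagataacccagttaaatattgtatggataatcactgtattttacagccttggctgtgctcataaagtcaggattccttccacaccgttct
CANNTG was found at 2 places for the Prox1 start shown, 1 for C1ql2, 2 for Lct and 0 for Dsp. The bases before the other Prox1 start (chr1:190169516-190169765) held it at 0 places. CANNTG reads the same way on both strands, and 66.2% of all 32851 promoters in the table hold it in a window of this length, so its presence does not set these genes apart. RefSeq promoters matched 7 of the 8 markers.

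**Figure D3:**
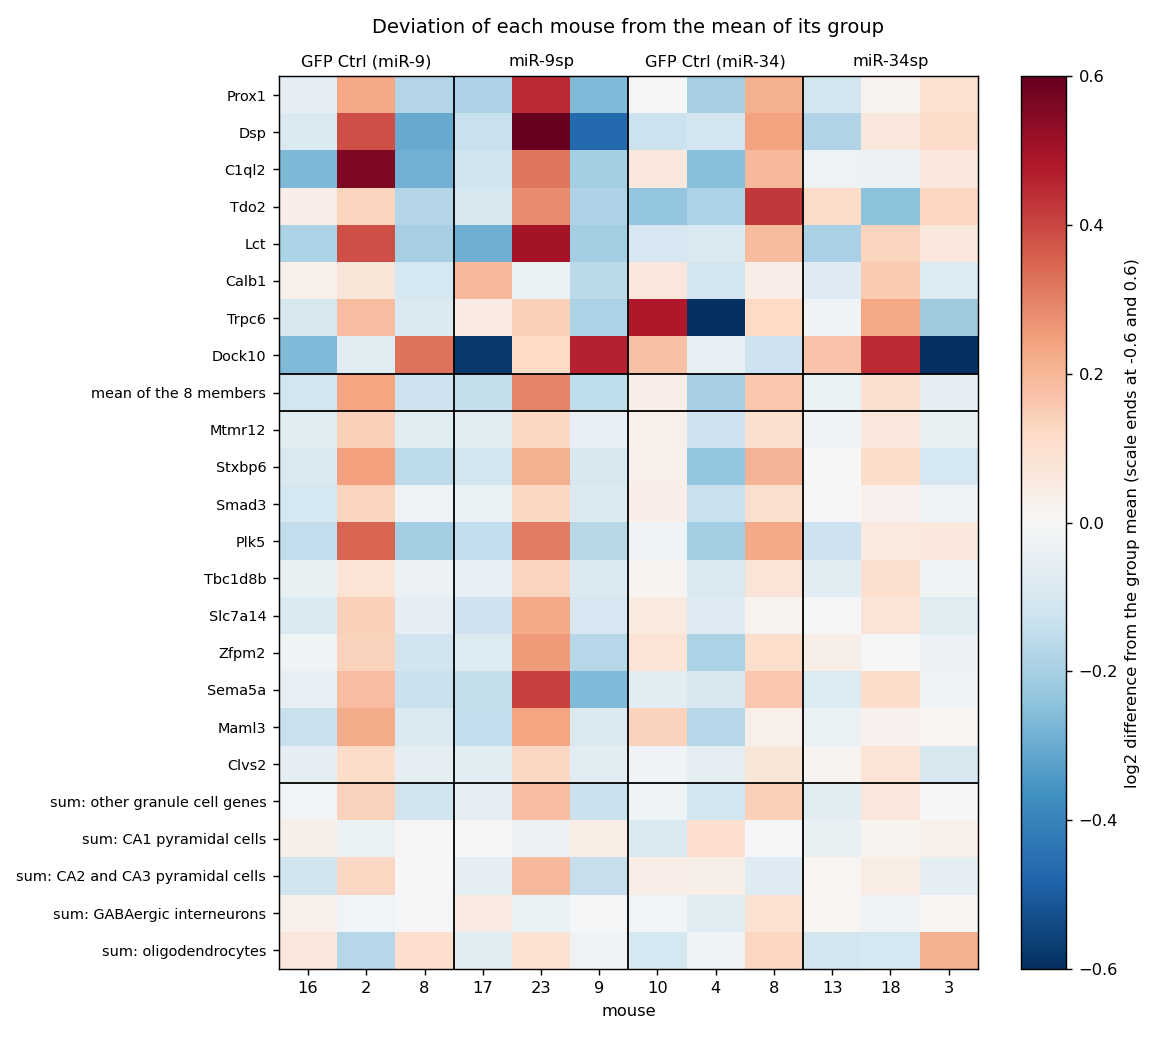
Log2 difference of each mouse from the mean of its own group (colour, red above and blue below, scale ending at -0.6 and 0.6) for the 8 markers, their mean, the 10 genes most like that mean, and the summed level of 5 gene lists. Columns are the 12 mice by group; miR-9sp mouse 23 and GFP Ctrl mouse 2 of the miR-9 experiment are red across most markers and like genes, while the CA1 list stays near 0 in both.

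The 10 genes whose deviations followed the mean of the 8 markers most closely, out of 8609 genes with a mean count of at least 100 in each group, were Mtmr12, Stxbp6, Smad3, Plk5, Tbc1d8b, Slc7a14, Zfpm2, Sema5a, Maml3 and Clvs2, with r from 0.98 for Mtmr12 to 0.92 for Clvs2 over 12 mice. These genes were picked for a high r, which is a description. Taken again without mice 23 and 2, in the same way, the r was 0.99 for Mtmr12, 0.98 for Stxbp6 and between 0.71 and 0.91 for the other 8. Stxbp6, Plk5 and Sema5a, 3 of the 10, belong to a list of 24 other granule cell genes, which was chosen with earlier results of these data known. Of the 15 genes of that list that could be ranked, 5 were among the first 100 of the 8609 and 11 among the first 1000. When the mean was taken over the 6 markers with a single RefSeq entry, a choice made after seeing the data, Gfod1 came first with an r of 0.99, and Plk5 and Sema5a were the 2 genes named both times. Which genes were named depended on whether the sparse counts of Trpc6 and Dock10 were included.

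Of the 24 other granule cell genes, 19 could be tested in each experiment, and 0 passed the adjusted p in edgeR in either. After miR-9sp, 14 of the 19 had a log2 fold change above 0, with a median of 0.09, and 2 were higher at an unadjusted p under 0.05, beside 2.47% of all genes. These were Gabrd, which encodes the delta subunit of extrasynaptic GABA-A receptors, with 30.2 ± 2.28 CPM in sponge and 26.8 ± 1.64 CPM in GFP Ctrl mice (SD, n = 3), and Fam163b with 269.6 ± 48.5 CPM against 227 ± 20.6 CPM. The lowest log2 fold change of the list was that of Penk, the precursor of enkephalin peptides, with -0.16 ± 0.10 (SE; adjusted p = 0.970, edgeR). After miR-34sp, 17 of the 19 were above 0, with a median of 0.09, and 2 were higher and 1 lower at an unadjusted p under 0.05, beside 2.71% and 3.72% of all genes. Gabrd had 30.6 ± 2.69 CPM against 24.6 ± 5.43 CPM in the controls, and Dgkh, a diacylglycerol kinase, had 5.28 ± 0.289 CPM against 4.09 ± 0.566 CPM and the highest log2 fold change, 0.35 ± 0.16 (SE; adjusted p = 0.769, edgeR). Penk had the lowest, with 36.1 ± 6.00 CPM against 46.1 ± 10.1 CPM. The summed level of the list was 1363 to 1699 CPM after miR-9sp and 1302 to 1555 CPM in its controls, and 1503 to 1645 CPM after miR-34sp and 1356 to 1621 CPM in its controls, so the groups overlapped in both experiments.

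**Figure D4:**
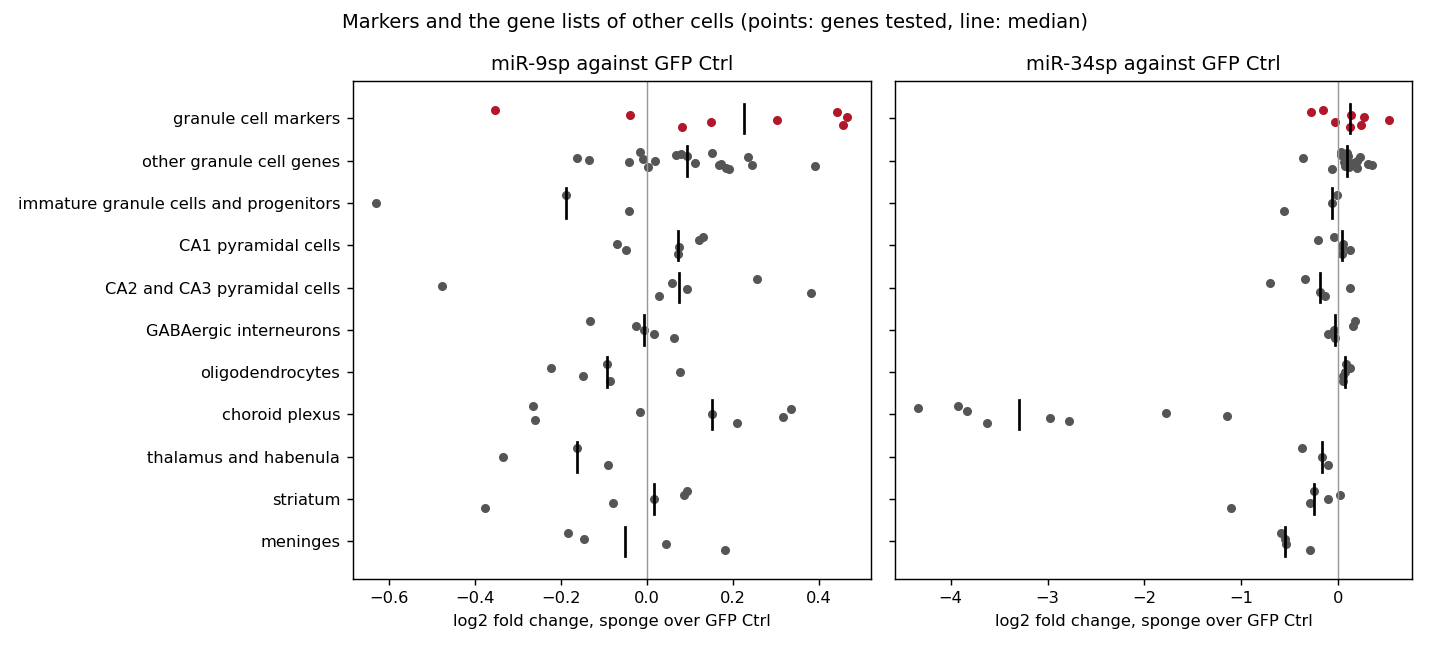
The log2 fold change, sponge over GFP Ctrl, of the 8 granule cell markers (red) and of the genes tested in 10 lists of other genes (grey), with the median of each as a line, after miR-9sp (left) and miR-34sp (right; the x axes differ). The medians of the markers are 0.22 and 0.13, and those of the choroid plexus list are 0.15 (left) and -3.30 (right).

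Other cells of the tissue give a setting for these values. Of 6 immature granule cell and progenitor genes, only 3 could be tested in each experiment, and Eomes was at 0 in every mouse. All 3 had a log2 fold change below 0, beside 49.7% of all genes above 0, with a median of -0.19 for miR-9sp and -0.06 for miR-34sp. After miR-34sp the values were -0.0099 for Sox11, -0.058 for Igfbpl1 and -0.55 for Draxin. The last 2 genes were sparse, with group means of 1.06 to 2.41 CPM. Sox11, a transcription factor of young neurons, was lower at an unadjusted p under 0.05 after miR-9sp, beside 2.26% of all genes. CA1 pyramidal cell genes had medians of 0.07 and 0.04, with 0 at an unadjusted p under 0.05. Interneuron genes had medians of -0.0078 and -0.03, with 1 of 5 (Sst) higher at that limit after miR-34sp, beside 2.71% of all genes. CA2 and CA3 pyramidal cell genes had a median of 0.07 for miR-9sp, with 2 of 6 higher at an unadjusted p under 0.05 (2.47% of all genes), and of -0.18 for miR-34sp, with 3 of 5 lower (3.72% of all genes). Oligodendrocyte genes had medians of -0.09 and 0.07, with 0 at that limit. None of the genes in these 5 lists passed the adjusted p in edgeR. In the mice where the granule cell markers were high, the lists did not move alike: the CA2 and CA3 sum deviated by 0.20 in mouse 23 and 0.12 in mouse 2, the CA1 sum by -0.04 in each, and the choroid plexus sum was 74.0 CPM in mouse 23 and 746 CPM in mouse 2. GFP Ctrl mouse 8 of the miR-34 experiment, the highest of its group for 5 markers, deviated by -0.08 in the CA2 and CA3 sum but by 0.71 in the choroid plexus, 0.67 in the striatum, 0.62 in the meninges and 0.48 in the thalamus and habenula sum. The part of these in its marker levels was not tested. Choroid plexus genes were lower after miR-34sp for 8 of 8 tested at an unadjusted p under 0.05, 4 of them past the adjusted p, with a median of -3.30, and meninges genes for 3 of 4, with a median of -0.54, beside 3.72% of all genes. The meninges sum was 48.1 to 54.8 CPM in the sponge mice, and 55.6, 56.3 and 106 CPM in GFP Ctrl mice 10, 4 and 8, so the last of these stood apart. Thalamus and habenula genes had medians of -0.16 and -0.17, and striatal genes of 0.02 and -0.25. In each of these lists 1 gene was lower at an unadjusted p under 0.05 after miR-34sp, beside 3.72% of all genes. The striatal sum overlapped, with 33.6 to 47.2 CPM in the sponge mice and 35.4, 37.1 and 72.6 CPM in GFP Ctrl mice 10, 4 and 8.

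The sponges act on miRNAs that recognise their targets through bases 2 to 8, the seed, which is shown in capitals in the mature RefSeq sequences.
mmu-miR-9-5p: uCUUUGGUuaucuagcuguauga
mmu-miR-34a-5p: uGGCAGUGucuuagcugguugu
mmu-miR-34b-5p: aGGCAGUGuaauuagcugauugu
The miR-34a and miR-34b sequences share the seed GGCAGUG, and miR-34c, the third member of the family, is named only. A transcript matches a seed where it holds the complementary heptamer, ACCAAAG for miR-9 and CACTGCC for miR-34. The 3′ UTRs of the markers were read from GENCODE M1 on mm9, for the transcript with the longest coding sequence, and 7 of the 8 markers had one. Among these 7, from 363 bases in Lct to 3301 bases in Calb1, 0 held the miR-9 heptamer and 0 held that of miR-34. Trpc6, the marker at the unadjusted limit after miR-9sp, had no 3′ UTR in that source and was not searched for either heptamer. Over all genes tested with a 3′ UTR, 12.2% held the miR-9 and 15.1% the miR-34 heptamer, in UTRs with a median of 943.5 and 958 bases. The result says only that these letters were not in these windows.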

How the data were processed

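The authors deposited whole-number counts of reads per RefSeq entry, not normalized, from 50 bp single-end mRNA-seq libraries, given beside another value, the length of each entry. The word totRNA stands in the headers of the miR-9 counts alone; a difference in preparation was not tested. The paper names mm9 and the submitters' processing notes name mm10 and STAR; the counts were used as deposited. Of 32850 entries 98.7% were joined to a symbol, and entries were summed per symbol. Symbols and sequences came from RefSeq tables (GRCm38.p6). Genes with a mean scaled count above 10 over the mice fitted were tested with edgeR 4.0.16 (R 4.3.3; quasi-likelihood, TMM, Benjamini-Hochberg over all genes), with no block. The alternatives were DESeq2 1.42.0, other scalings and filters, unsummed entries, 1 model of 12 mice, the study's criterion (a ratio above 1.2 in either direction at an unadjusted p under 0.05) and each mouse left out. CPM use TMM totals, and deviations use log2(CPM + 0.25). GFP Ctrl mice 16, 2 and 8 were placed in the miR-9 experiment because the labels name the experiment of the others. Mice of a group differed by more than sampling noise (chi-square per degree of freedom 2.44 to 12.4), so each counted as 1 sample; p-values measure the spread between these mice. The markers and gene lists were chosen with earlier results of these data known. All 8 markers are named in full; of the other granule cell genes those with an unadjusted p under 0.05 or the highest or lowest fold change are named, and the 10 genes of highest r with the markers' mean. A gene that this rule names is not reported here.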

Additional observations from a re-analysis of the deposited data

How the results depend on the processing

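No marker passed the adjusted p of edgeR or DESeq2 under any alternative run. Of the log2 fold changes of single markers, 105 of 110 after miR-9sp, 107 of 110 after miR-34sp and 124 of 134 of the differences kept their direction and their side of the threshold. The 32 group levels in CPM moved by less than 1 SD with total counts alone. By the study's criterion, applied here to entries summed per symbol, Trpc6 (1 marker) and 188 genes passed after miR-9sp, and 0 markers at its unadjusted p and 250 genes after miR-34sp. Both gene totals are higher than those in the paper, so its gene lists were not reproduced exactly. Genes past the adjusted p numbered 2, 36 and 5 with DESeq2 (miR-9sp, miR-34sp, difference), 2, 81 and 4 with no filter, and for miR-34sp 4 with RLE size factors, 4 with total counts alone, 4 with unsummed entries, 0 with a filter of 100 and 0 with all 12 mice in 1 model. Markers at an unadjusted p under 0.05 numbered 0 after miR-9sp and 0 for the difference with DESeq2 and with the filter of 100 (which drops Trpc6 and Dock10), 4 after miR-9sp with no filter, and 2 after miR-9sp and 1 after miR-34sp in 1 model.

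Leaving out each mouse gave 0 to 1, 0 to 57 and 0 to 1 genes past the adjusted p, 57 being without GFP Ctrl mouse 10 of the miR-34 experiment. It gave 0 to 5, 1 to 4 and 0 to 2 markers at an unadjusted p under 0.05 (miR-9sp, miR-34sp, difference); after miR-9sp it was 0 without sponge mouse 23 or without GFP Ctrl mouse 16 or 8, 2 without mouse 17, 4 without mouse 9 and 5 without GFP Ctrl mouse 2, and after miR-34sp 1 without mouse 18 or GFP Ctrl mouse 10. Median log2 fold changes of the markers were 0.04 to 0.43, 0.06 to 0.19 and -0.14 to 0.25; the lowest and highest for miR-9sp and the difference were without mouse 23 and without GFP Ctrl mouse 2. Some single markers turned sign when a mouse was left out. After miR-9sp these were Prox1 (-0.17 to 0.21, lowest without mouse 23), C1ql2 (-0.027 to 0.49, lowest without mouse 23) and Calb1 (-0.15 to 0.038, highest without mouse 9). After miR-34sp they were C1ql2 (-0.14 to 0.071, highest without GFP Ctrl mouse 8), Trpc6 (-0.52 to 0.022, highest without GFP Ctrl mouse 10) and Dock10 (-0.41 to 0.14, highest without mouse 3). For the difference they were Prox1 (-0.29 to 0.090), Dsp (-0.13 to 0.44), Lct (-0.094 to 0.41) and Dock10 (-0.58 to 0.15), lowest without mouse 23 for the first 3. The cause was not tested. No paired analysis was made, because the groups compared consist of different mice. Counts under 100 reads limit Trpc6 and Dock10.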
